A study of Mus musculus with 8 samples.

Results

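The TGF-beta and BMP signalling genes described here are 48 genes chosen by symbol from the 38370 genes with expression values in inguinal white adipose tissue (ING WAT) of C57BL/6j mice. They comprise the ligands of the TGF-beta, BMP, activin and GDF groups, the proteins that store and process these ligands, their receptors and antagonists, the Smad proteins, the Id genes and *Tgfbi*. All 48 had values, 40 passed a mean of 1 FPKM and were tested, and 8 stayed below it. FPKM is the number of fragments divided by transcript length and by the mapped fragments of the library, so levels can be compared between genes.

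Poly(A)+ RNA of the inguinal depot was sequenced from 4 mice killed at weaning on postnatal day 21 (PN21), numbered m1, m49, m138 and m145, and from 4 killed on postnatal day 98 (PN98), numbered m35, m106, m114 and m125, which asks how the depot changes from weaning to young adulthood. In the study the dams and pups were on AIN93G diet, the weaned mice stayed on it until PN42, and from then on they received AIN93M or a western style diet (WSD). The labels and methods do not say which of the last 2 diets the sequenced PN98 mice had eaten, nor which mice were littermates. AIN93M and WSD were fed only from PN42, so age and diet cannot be told apart. Each value is from 1 mouse, the groups have n = 4 each, and the depth of the libraries is unknown because the files hold no read counts.

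Ligands of the TGF-beta family are secreted as dimers and bind a pair of type I and type II serine/threonine kinase receptors. TGF-beta and activin receptors phosphorylate Smad2 and Smad3, BMP receptors phosphorylate Smad1, Smad5 and Smad9, and both kinds of receptor Smad enter the nucleus with the common partner Smad4. In adipose tissue BMPs are known for promoting commitment of progenitors to the adipocyte lineage, whereas TGF-beta is known for restraining adipocyte differentiation and for inducing matrix genes.

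*Inhbb*, the beta B subunit of activin B and inhibin B, was 6.72 times as high at PN98 as at PN21, and *Fstl1*, a secreted follistatin-like glycoprotein, was 3.45 times as high at PN21 as at PN98. These were the 2 of 40 tested members that passed an adjusted p under 0.05, which is 5% of the members, beside 5.28% of all 16103 genes tested (2.35% higher and 2.93% lower at PN98). An unadjusted p under 0.05 was reached by 12 members, beside 27.2% of all genes. The 4 mice of one age all lay above the 4 of the other for 6 of the 40 members, 4 higher and 2 lower at PN98, which is 15% of the members, beside 16% of all genes (6.05% higher and 10% lower). As deposited, both shares were near those of all genes. With median of ratios scaling, which aligns the libraries on their median gene ratio, 6 members (15%) were called, beside 7.61% of all genes, and 10 (25%) did not overlap, beside 16.7%. The mean log2 level was lower at PN98 for 22 of 40 members (55%) and for 67% of all genes, and the median difference on the log2 scale was -0.05 over the members and -0.21 over all genes. Log2 fold changes are on the log2(FPKM + 1) scale, PN98 minus PN21, which understates the change of low genes, and adjusted p-values are from limma with Benjamini-Hochberg adjustment over all genes tested.

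**Figure D1:**
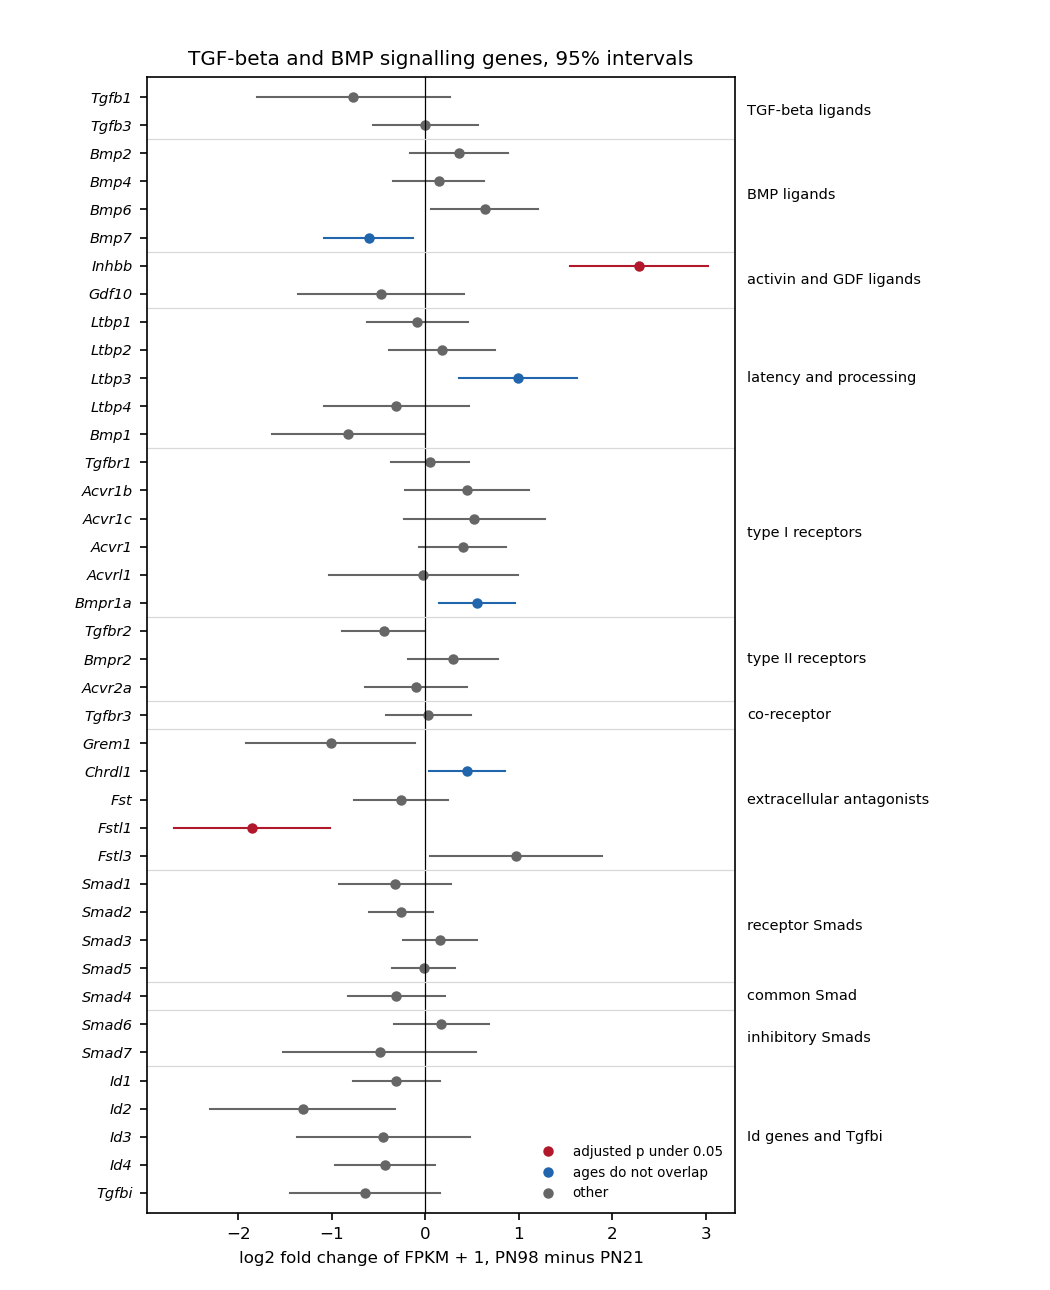
Log2 fold change of FPKM + 1 (PN98 minus PN21, horizontal axis) of the 40 tested members with its 95% confidence interval from limma, grouped by role, with 4 mice per age. *Inhbb* at 2.29 and *Fstl1* at -1.86 (red) had an adjusted p under 0.05, and *Bmp7*, *Ltbp3*, *Bmpr1a* and *Chrdl1* (blue) had ages that did not overlap.

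The promoters of 4 of the 6 members whose ages did not overlap are printed because they show the start regions of the genes that the results turn on. They are from RefSeq (GRCm38.p6, the build of mm10) and come from the 250 bases before a RefSeq start of the gene on its own strand. They stand 5′ to 3′ in lower case with motif letters in capitals. GENCODE places a first exon of *Fstl1* and of *Bmpr1a* inside this window, and only the 68 and 109 bases before that exon are printed. The *Bmpr1a* window lies inside the GENCODE gene, whose 5′ end at chr14:34503341 is further upstream. *Inhbb* lies at chr1:119422249-119422498 on the minus strand, *Fstl1* at chr16:37776805-37776872 on the plus strand, *Ltbp3* at chr19:5740650-5740899 on the plus strand and *Bmpr1a* at chr14:34502688-34502796 on the minus strand.
Inhbb: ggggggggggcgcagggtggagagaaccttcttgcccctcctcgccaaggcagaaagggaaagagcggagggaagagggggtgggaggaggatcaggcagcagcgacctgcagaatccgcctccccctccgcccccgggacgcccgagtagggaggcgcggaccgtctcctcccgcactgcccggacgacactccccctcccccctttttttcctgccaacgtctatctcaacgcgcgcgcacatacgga
Fstl1: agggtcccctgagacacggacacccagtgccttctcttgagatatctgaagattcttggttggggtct
Ltbp3: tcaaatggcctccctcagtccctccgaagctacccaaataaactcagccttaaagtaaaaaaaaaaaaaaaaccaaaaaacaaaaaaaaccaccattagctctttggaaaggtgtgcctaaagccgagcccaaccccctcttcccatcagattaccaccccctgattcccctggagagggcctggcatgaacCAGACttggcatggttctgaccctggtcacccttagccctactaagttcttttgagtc
Bmpr1a: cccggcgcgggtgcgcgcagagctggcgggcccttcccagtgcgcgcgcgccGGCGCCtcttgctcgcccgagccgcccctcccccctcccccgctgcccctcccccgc

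Short sequences known for binding Smads were searched on both strands: CAGAC, the box bound by Smad3 and Smad4, the palindrome GTCTAGAC, and GGCGCC, a GC-rich element bound by Smads of the BMP branch. None of these 3 contains another. Of the members, 35 had an entry, with 44 promoters in all. CAGAC was in the promoter of 20 of the 44 (45.5%), beside 42.2% of all 32851 promoters of the same length, GGCGCC in 11 (25%), beside 9.59%, and GTCTAGAC in 0, beside 0.167%. The 11 include overlapping windows of *Ltbp4*, and G and C made up 62.4% to 79.2% of the windows with GGCGCC. All promoters were not matched for G and C, so the 2 shares of GGCGCC are no test. Of the 4 genes *Ltbp3* held CAGAC from 58 to 54 bases before its RefSeq start. *Bmpr1a* held GGCGCC from 198 to 193 bases before its RefSeq start, inside the GENCODE gene. The *Inhbb* and *Fstl1* windows held none of the 3, which says only that these letters are not in these windows.

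Among the ligands of the activin and GDF group, *Inhbb* (ENSMUSG00000037035, mm10 chr1:119415465-119422248, minus strand, 1 transcript of 2 exons) stood at 3.83 FPKM in m1, 1.87 in m49, 1.52 in m138 and 2.32 in m145 at PN21. At PN98 its level was 17.8 FPKM in m35, 10.97 in m106, 25.1 in m114 and 10.2 in m125. The lowest PN98 mouse was thus well above the highest PN21 mouse. The log2 fold change was 2.29 (SE 0.32, 95% interval 1.55 to 3.03, limma adjusted p = 0.0105), and *Inhbb* was called in all 16 alternative analyses. The sister subunit gene *Inhba*, which encodes the beta A subunit, stayed between 0.0800 and 0.571 FPKM in all 8 mice and was not tested.

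The share of *Inhbb* in the summed FPKM of *Inhba* and *Inhbb* was 80.2% to 91.1% at PN21 and 98.1% to 99.3% at PN98. A share within 1 mouse does not depend on how the libraries are scaled. The mean share was 84.0% ± 4.94 (SD, n = 4) in PN21 mice and 98.6% ± 0.505 (SD, n = 4) in PN98 mice (two-sided exact permutation test, p = 0.0286, Benjamini-Hochberg p = 0.135 over 33 shares). The smallest p that 4 against 4 mice allow is 0.0286, no share passed the adjustment, and the shares of 1 family are not independent of each other.

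*Gdf10* encodes a BMP3-like ligand and had a mean of 10.5 FPKM at PN21, above the 2.38 FPKM of *Inhbb*, and of 7.97 FPKM at PN98, below its 16.0 FPKM. It was listed at 10.7, 7.67, 9.19 and 14.5 FPKM in m1, m49, m138 and m145 and at 12.8, 5.99, 10.1 and 3.02 FPKM in m35, m106, m114 and m125. The ages overlapped (log2 fold change -0.47, SE 0.39, limma adjusted p = 0.445). *Mstn*, which encodes myostatin and is a gene of skeletal muscle, lay below the filter at 0 to 0.0555 FPKM at PN21 and 0.0597 to 2.37 FPKM at PN98. Its highest value was in m106, where the summed FPKM of the skeletal muscle markers was also highest, at 2951 FPKM, beside 31.4 to 656 FPKM at PN21. The part of muscle RNA in the *Mstn* values was not tested.

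*Tgfb1* was the leading TGF-beta ligand gene. Its levels were 28.8, 19.3, 42.6 and 30.1 FPKM in m1, m49, m138 and m145, and 37.7, 14.7, 18.2 and 7.37 FPKM in m35, m106, m114 and m125. Mice m106, m114 and m125 lay below all PN21 mice, and m35 lay inside their range (log2 fold change -0.77, SE 0.45, limma adjusted p = 0.288). *Tgfb3* averaged 3.60 FPKM ± 0.618 (SD, n = 4) in the PN21 mice and 3.75 ± 1.52 (SD, n = 4) in the PN98 mice, and its log2 fold change was 0.00 (95% interval -0.56 to 0.56). *Tgfb2* was too low to be tested, at 0.716 to 0.852 FPKM at PN21 and 0.419 to 0.539 at PN98, and these ranges did not overlap. Without the filter on low values *Tgfb2* joined the members called.

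Of the BMP ligand genes, *Bmp6* had the highest level and *Bmp7* was the one whose ages did not overlap. *Bmp7* stood at 1.47, 1.15, 1.66 and 2.86 FPKM in m1, m49, m138 and m145 and at 1.12, 0.601, 0.825 and 0.641 FPKM in m35, m106, m114 and m125. The gap between the lowest PN21 mouse, m49, and the highest PN98 mouse, m35, was small, and the difference did not pass the test (log2 fold change -0.61, SE 0.21, limma adjusted p = 0.123). *Bmp6* had values of 4.35, 2.11, 3.91 and 4.02 FPKM at PN21 and 7.43, 6.30, 7.09 and 3.81 FPKM at PN98, in the same order of mice. In 3 of 4 PN98 mice *Bmp6* was above every PN21 mouse, and m125 was not (log2 fold change 0.64, SE 0.25, limma adjusted p = 0.155). *Bmp2* and *Bmp4* had log2 fold changes of 0.36 and 0.14 that did not pass the test, and *Bmp5* stayed at or below 0.406 FPKM.

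The share of each BMP ligand gene was taken within each mouse. *Bmp6* held 36.9% to 48.6% of the summed FPKM of the 5 BMP ligand genes at PN21 and 51.9% to 61.3% at PN98. *Bmp7* held 16.5% to 26.2% at PN21 and 5.85% to 9.17% at PN98. These 2 of the 5 shares did not overlap between the ages, and neither passed the adjustment (two-sided exact permutation test, p = 0.0286 for each, Benjamini-Hochberg p = 0.135). Summed over the 5 genes, the level was 8.53 FPKM ± 2.23 (SD, n = 4) in PN21 mice and 11.05 ± 3.17 (SD, n = 4) in PN98 mice. Over all 8 families the ages did not overlap for 7 of 33 shares (21.2%), beside 16% for the levels of all genes.

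**Figure D2:**
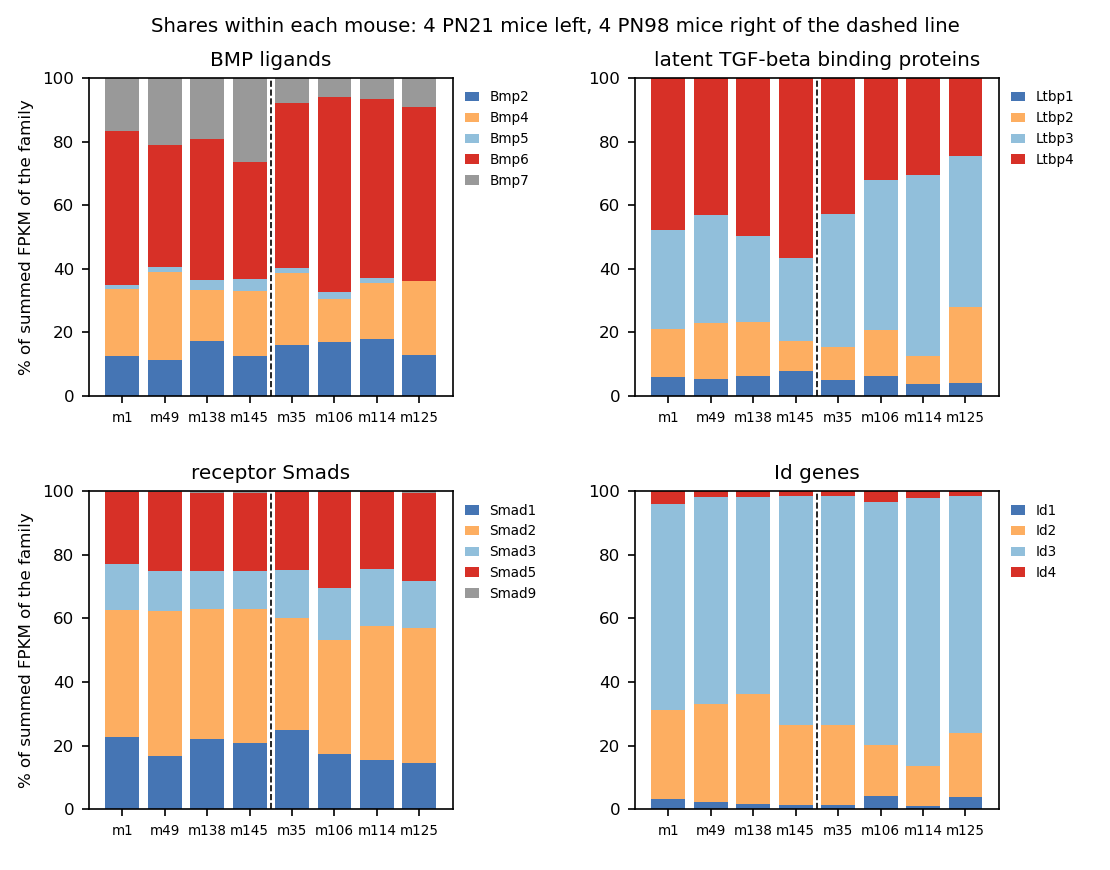
Share of each gene in the summed FPKM of its family (vertical axis, percent) in each mouse, with 4 PN21 mice left and 4 PN98 mice right of the dashed line. *Bmp7* took 16.5% to 26.2% of the BMP ligand sum at PN21 and 5.85% to 9.17% at PN98, and *Ltbp3* took 26.1% to 34.1% of the *Ltbp* sum at PN21 and 41.9% to 56.9% at PN98.

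Latent TGF-beta binding proteins tether the inactive TGF-beta complex to the matrix. *Ltbp3* (ENSMUSG00000024940, mm10 chr19:5740904-5758532, plus strand) had values of 39.3, 30.0, 27.9 and 24.7 FPKM in m1, m49, m138 and m145, and of 65.3, 49.1, 97.6 and 43.3 FPKM in m35, m106, m114 and m125. All PN98 mice lay above all PN21 mice, and the difference missed the threshold (log2 fold change 0.99, SE 0.28, 95% interval 0.36 to 1.62, limma adjusted p = 0.0786).

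*Ltbp4* was the other abundant member of the group, at 60.4, 37.7, 50.8 and 53.7 FPKM at PN21 and 66.6, 33.3, 52.5 and 22.2 FPKM at PN98. Its ages overlapped (log2 fold change -0.31, SE 0.34, limma adjusted p = 0.563). *Ltbp3* held 26.1% to 34.1% of the summed FPKM of *Ltbp1* to *Ltbp4* at PN21 and 41.9% to 56.9% at PN98, whereas *Ltbp4* held 43.0% to 56.7% and 24.4% to 42.7%. *Ltbp4* had the largest share in every PN21 mouse and *Ltbp3* the largest in 3 PN98 mice, the exception being m35 with 41.9% for *Ltbp3* and 42.7% for *Ltbp4*. This order depends on summing all *Ltbp4* transcripts, among them retained introns such as *Ltbp4-208*, which held 27.8% to 37.4% of the gene at PN21. The coding transcript *Ltbp4-205* (coding length 4800 bases) was at 12.3 to 23.9 FPKM at PN21 and 7.21 to 34.7 FPKM at PN98. It lay below *Ltbp3* in every mouse. For both genes the exact permutation p was 0.0286 and the Benjamini-Hochberg p 0.135. *Ltbp1* and *Ltbp2* had log2 fold changes of -0.09 and 0.18, and *Bmp1*, a protease of procollagen and latent complexes, one of -0.82 (limma adjusted p = 0.182).

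Type I receptors carry the kinase that phosphorylates the receptor Smads. Of the 6 tested genes 5 had a higher mean log2 level at PN98, and none of the 6 passed the test. *Bmpr1a*, a BMP receptor (ENSMUSG00000021796, mm10 chr14:34410734-34503341, minus strand), had values of 9.99, 8.66, 7.86 and 6.63 FPKM in m1, m49, m138 and m145 and of 12.1, 13.4, 14.8 and 10.2 FPKM in m35, m106, m114 and m125. Its ages were separated by a small gap between m1 and m125 (log2 fold change 0.55, SE 0.18, 95% interval 0.15 to 0.96, limma adjusted p = 0.104). The lowest receptor gene was *Bmpr1b*, between 0.0175 and 0.0845 FPKM.

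*Acvrl1*, the endothelial receptor ALK1, was the most abundant type I receptor gene, at 18.3, 10.3, 20.1 and 16.9 FPKM at PN21 and 27.5, 16.2, 22.2 and 5.86 FPKM at PN98. It differed little in mean (log2 fold change -0.02, SE 0.44, limma adjusted p = 0.980), and the direction flips with the other scalings of the libraries. Its lowest value was in m125, where the summed FPKM of the 8 endothelial markers was also lowest, at 143 FPKM beside 256 to 517 FPKM in the other mice. The sums of the progenitor and fibroblast, mural, macrophage and lymphocyte markers were lowest in m125 too, at 462, 58.2, 44.0 and 13.6 FPKM. The part of endothelial RNA or of RNA of other cell types in the *Acvrl1* values was not tested. *Acvr1c*, which encodes ALK7, the receptor known for activin B signalling in adipocytes, was at 5.15 to 10.03 FPKM at PN21. At PN98 it stood at 5.76 FPKM in m35 and at 14.3, 16.8 and 12.2 FPKM in m106, m114 and m125 (log2 fold change 0.53, SE 0.33, limma adjusted p = 0.317).

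*Tgfbr2*, the type II receptor of TGF-beta, was the most abundant receptor gene among the 48. It was at 32.3, 30.6, 30.2 and 26.8 FPKM in m1, m49, m138 and m145 and at 31.0, 19.1, 17.8 and 20.9 FPKM in m35, m106, m114 and m125. All PN98 mice but m35 lay below every PN21 mouse (log2 fold change -0.45, SE 0.19, limma adjusted p = 0.183). *Bmpr2* and *Acvr2a*, the type II receptors of BMPs and activins, had log2 fold changes of 0.30 and -0.10, and *Acvr2b* was below the filter at 0.721 to 1.35 FPKM. The co-receptor gene *Tgfbr3*, which encodes betaglycan, had 15.7, 16.6, 17.1 and 13.1 FPKM at PN21 and 20.7, 13.95, 18.4 and 12.1 FPKM at PN98 (log2 fold change 0.03, 95% interval -0.42 to 0.49).

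*Fstl1* (ENSMUSG00000022816, mm10 chr16:37776873-37836514, plus strand) had the highest level of the 48 genes. At PN21 it stood at 295 FPKM in m1, 164 in m49, 234 in m138 and 257 in m145. At PN98 it stood at 97.5 FPKM in m35, 66.3 in m106, 80.8 in m114 and 30.7 in m125. The ages did not overlap, and m125 was the lowest mouse (log2 fold change -1.86, SE 0.36, 95% interval -2.69 to -1.02, limma adjusted p = 0.0280). The call was kept in all 8 alternatives that used all mice, and it was lost in 6 of the 8 analyses that left out 1 mouse, namely any PN21 mouse, m106 or m114 (adjusted p 0.0503 to 0.0856). Of its 6 transcripts 5 also list *Gm15724*, an overlapping gene, and the sources used here do not state whether the counting used the strand.

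The other antagonists bind BMPs or activins outside the cell. *Chrdl1*, a chordin-like BMP antagonist (ENSMUSG00000031283, mm10 chrX:143285674-143394262, minus strand), was at 9.35, 8.71, 12.04 and 10.9 FPKM in m1, m49, m138 and m145 and at 18.5, 12.8, 13.4 and 12.8 FPKM in m35, m106, m114 and m125. The PN98 mice all lay above the PN21 mice (log2 fold change 0.44, SE 0.18, limma adjusted p = 0.160). *Fstl3*, an activin-binding protein, had a log2 fold change of 0.97 (SE 0.40, limma adjusted p = 0.169) and *Fst*, which encodes follistatin, one of -0.26 (SE 0.22, limma adjusted p = 0.456). *Grem1*, the BMP antagonist gremlin, was at 1.26 to 3.30 FPKM at PN21. At PN98 it was at 2.17 FPKM in m35 and at 0.0392 FPKM in m114 and 0.00751 in m125, with m106 between them and m35 (log2 fold change -1.01, SE 0.39, limma adjusted p = 0.153), and *Nog* stayed at or below 0.653 FPKM.

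**Figure D3:**
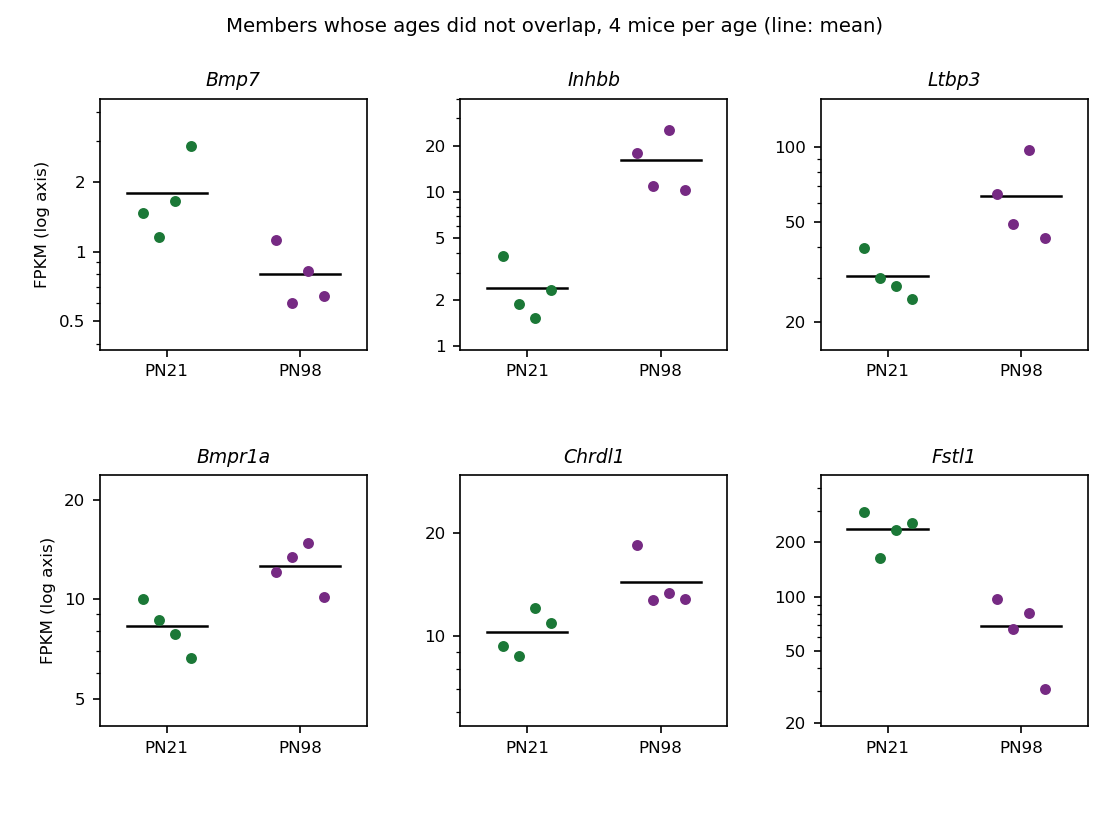
FPKM (log axis) of the 6 members whose ages did not overlap, with 1 point per mouse (4 per age) and the mean as a line. *Inhbb* ran from 1.52 to 3.83 FPKM at PN21 and from 10.2 to 25.1 FPKM at PN98, *Fstl1* from 164 to 295 and from 30.7 to 97.5 FPKM, and the gaps of *Bmp7*, *Bmpr1a* and *Chrdl1* are narrow.

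Among the Smad genes, which carry the signal to the nucleus, none of 7 tested passed the test. *Smad2*, of the TGF-beta branch, was the most abundant receptor Smad gene, at 18.002, 18.8, 20.6 and 16.6 FPKM at PN21 and 16.2, 13.6, 17.6 and 13.9 FPKM at PN98 (log2 fold change -0.26, SE 0.15, limma adjusted p = 0.275). *Smad3*, *Smad1* and *Smad5* had log2 fold changes of 0.16, -0.32 and -0.02, and *Smad9* stayed at or below 0.181 FPKM. *Smad3* held 11.9% to 14.6% of the receptor Smad sum at PN21 and 14.8% to 17.8% at PN98, without overlap (exact permutation p = 0.0286, Benjamini-Hochberg p = 0.135).

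*Smad4*, the common Smad, was at 35.9, 20.9, 38.1 and 23.0 FPKM at PN21 and 25.7, 20.4, 23.5 and 21.9 FPKM at PN98 (log2 fold change -0.31, SE 0.22, limma adjusted p = 0.389). The spread of this sum was wide at PN21 and narrow at PN98. The coding transcript *Smad4-201* did not show this, at 12.5 FPKM ± 2.07 (SD, n = 4) in PN21 mice and 10.3 ± 2.03 (SD, n = 4) in PN98 mice. The sum also holds short non-coding transcripts such as *Smad4-204* (487 bases), at 0.793 to 11.4 FPKM at PN21. *Smad7*, which inhibits both branches, had a higher mean than *Smad6* at PN21, 6.33 beside 4.70 FPKM, and a lower one at PN98, 5.15 beside 5.48 FPKM. Its levels were 5.47, 5.18, 8.97 and 5.71 FPKM at PN21 and 12.1, 3.99, 2.71 and 1.85 FPKM in m35, m106, m114 and m125. Mouse m35 was above every PN21 mouse and the other PN98 mice were below them (log2 fold change -0.49, SE 0.45, limma adjusted p = 0.485). *Smad6*, which inhibits the BMP branch, had a log2 fold change of 0.17 (SE 0.22, limma adjusted p = 0.623).

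The Id genes are direct targets of the BMP branch and encode inhibitors of helix-loop-helix transcription factors, and *Tgfbi* encodes a matrix protein induced by TGF-beta. All 5 had a lower mean log2 level at PN98 under the deposited and both other scalings, and none passed the test. *Id3*, the most abundant of them, was at 48.1, 58.1, 66.8 and 117 FPKM at PN21 and at 86.4, 42.5, 62.7 and 26.6 FPKM at PN98, with overlapping ages (log2 fold change -0.45, SE 0.40, limma adjusted p = 0.476). *Id2* had the largest difference of the 5, from 20.8 to 40.6 FPKM at PN21. At PN98 it was at 30.2 FPKM in m35 and at 8.89, 9.31 and 7.25 FPKM in m106, m114 and m125 (log2 fold change -1.31, SE 0.43, limma adjusted p = 0.112). *Id3* held 61.8% to 72.17% of the summed FPKM of the 4 Id genes at PN21 and 72.18% to 84.2% at PN98, which just did not overlap.

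Mouse m35 stood apart from the other 3 PN98 mice in several of these genes. Without m35, 7 of the members passed an adjusted p under 0.05, *Inhbb* and *Acvr1c* higher and *Fstl1*, *Grem1*, *Id2*, *Smad7* and *Tgfbr2* lower at PN98, while 22.1% of all genes tested passed. The ages then did not overlap for 13 members, beside 37.5% of all genes. Without m35 the log2 fold changes were 0.82 for *Acvr1c* (limma adjusted p = 0.0447), -1.74 for *Id2* (0.00821), -1.39 for *Grem1* (0.0131), -0.94 for *Smad7* (0.0393) and -0.61 for *Tgfbr2* (0.0272). The summed FPKM of the 7 lymphocyte markers was 734 in m35, 13.6 to 143 in the other PN98 mice and 322 to 790 at PN21, and the sum of the 6 brown or beige adipocyte markers was 311 in m35, 903 to 3480 in the other PN98 mice and 2183 to 4734 at PN21. The sums of the endothelial, mural and macrophage markers were higher in m35 than in any other mouse, at 517, 309 and 143 FPKM. Among the PN98 mice m35 also had the highest progenitor and fibroblast sum, at 856 FPKM, and the lowest adipocyte sum, at 33221 FPKM. The part of lymphocytes or of any other cell type in the m35 values was not tested.

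The cell type markers moved with age too. The summed FPKM of the 7 adipocyte markers was 12284 to 22532 at PN21 and 33221 to 43423 at PN98, with *Adipoq*, *Cidec* and *Lipe* called higher, 3 of the 7. Most of this sum was *Fabp4*, at 10641 to 20251 and 27521 to 37466 FPKM, which was not called (limma adjusted p = 0.0539). *Plin1*, *Lep* and *Pparg* were not called either, and the mean log2 level of *Pparg* was lower at PN98 (log2 fold change -0.26). The summed FPKM of the 9 progenitor and fibroblast markers overlapped, at 511 to 974 and 462 to 856. The mean log2 level was lower at PN98 for 7 of these 9, beside 67% of all genes, and higher for *Pi16* and *Dcn*, both with a log2 fold change of 0.43. *Dlk1*, *Cd34* and *Lum* (33.3%) did not overlap, all 3 lower, beside 10% of all genes, with *Dlk1* alone called. Of the 6 brown or beige markers none was called, and *Ucp1* and *Dio2* did not overlap, both lower, whereas the mean of *Elovl3* was higher. The sums of the endothelial, mural and macrophage markers overlapped as well, with 1 mural marker, *Kcnj8*, called lower and no call among the 8 endothelial and 6 macrophage markers. The skeletal muscle sum was 31.4 to 656 at PN21 and 420 to 2951 at PN98, with *Actn3* called higher. The mammary and skin epithelial sum was 2.41 to 28.2 at PN21 and 0.211 to 1.41 at PN98, where *Krt14* was listed at 0 in all 4 mice and *Epcam* was called lower. *Adipoq* was at 817 FPKM or more in all 8. In bulk tissue, fewer cells of a type and less RNA per cell cannot be told apart, and the part of cell composition in the *Inhbb* and *Fstl1* differences was not tested.

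The deposited table gives each transcript its own value, and 55 transcripts of 35 members were above 0 FPKM in each of the 8 mice and averaged more than 2 FPKM at 1 age or both. On log2(FPKM) without a pseudocount, 11 of them (20%), 7 higher and 4 lower at PN98, had an unadjusted p under 0.05, beside 21.8% of all 23172 transcripts tested. An adjusted p under 0.05 was reached by 2 (3.64%), beside 1.36% of all transcripts. These were the single *Inhbb* transcript, with a log2 fold change of 2.74 (SE 0.40, limma adjusted p = 0.0297), and 1 of the *Ltbp2* transcripts. Both calls were lost in 7 of the 8 analyses that left out 1 mouse, all but that without m35, with adjusted p-values of 0.0513 to 0.1015 for *Inhbb* and 0.0613 to 0.145 for *Ltbp2*. Of the 6 alternatives that kept all mice, *Inhbb* was called in all 6 and *Ltbp2-201* in 3, being lost with limma trend, with scaling to nuclear genes and without the condition on zeros (adjusted p 0.0510 to 0.0921).

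*Ltbp2-201* (ENSMUST00000002073, 36 exons) was at 4.00, 2.19, 4.33 and 2.08 FPKM in m1, m49, m138 and m145 and at 0.794, 0.640, 0.703 and 1.07 FPKM in m35, m106, m114 and m125. The ages did not overlap (log2 fold change -1.92, SE 0.32, limma adjusted p = 0.0437). The near-identical *Ltbp2-202* (ENSMUST00000110254, 35 exons) had a log2 fold change of 0.84 (SE 0.42, limma adjusted p = 0.274) and the retained intron transcript *Ltbp2-207* one of 0.91 (SE 0.44, limma adjusted p = 0.261). *Ltbp2-201* held 14.2% to 24.6% of the gene's FPKM at PN21 and 4.21% to 4.97% at PN98, and the gene as a whole had a log2 fold change of 0.18 (SE 0.25). Because Cufflinks divides fragments between transcripts that share most exons, the split between *Ltbp2-201* and *Ltbp2-202* is uncertain.

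*Chrdl1-201* (ENSMUST00000063029, coding length 1341 bases) was at 2.85, 2.68, 3.33 and 3.07 FPKM at PN21 and 7.57, 5.21, 4.82 and 5.91 FPKM at PN98, again without overlap (log2 fold change 0.96, SE 0.19, limma adjusted p = 0.0635). *Chrdl1-202*, the form with the shorter coding sequence (ENSMUST00000074660, 999 bases), had a log2 fold change of 0.22 (SE 0.21, limma adjusted p = 0.540). *Chrdl1-201* thus held 27.6% to 30.8% of the gene at PN21 and 36.0% to 46.2% at PN98. The main *Fstl1* transcript, *Fstl1-201*, had a log2 fold change of -1.82 (SE 0.36, limma adjusted p = 0.0621), close to that of the gene, though it missed the threshold at this level.

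**Figure D4:**
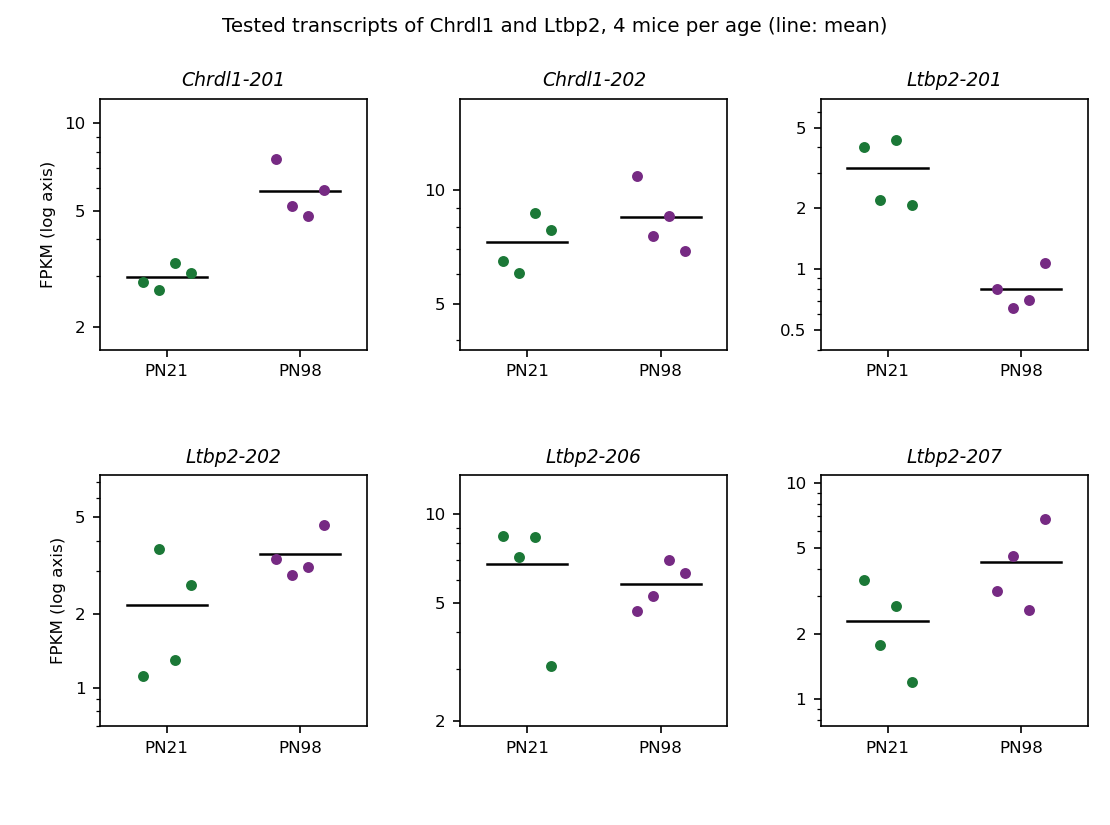
FPKM (log axis) of the 6 tested transcripts of *Chrdl1* and *Ltbp2*, with 1 point per mouse (4 per age) and the mean as a line. *Chrdl1-201* lies above the PN21 range in every PN98 mouse and *Ltbp2-201* below it, at 2.08 FPKM or more at PN21 and 1.07 FPKM or less at PN98, while the other 4 transcripts overlap between the ages.

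The rest of the pathway was described with 72 further genes, of which 49 were tested and 6 (12.2%) passed an adjusted p under 0.05, beside 5.28% of all genes, and the median log2 fold change was -0.21 in both. Of 34 tested pathway components 2 passed (5.88%), both higher at PN98, so the excess over all genes lay in the responsive genes below. The lists were chosen with earlier results of these data known, so their shares are no test of the pathway. *Pcsk6*, a convertase that cleaves TGF-beta family precursors, was at 12.4, 9.73, 8.49 and 13.5 FPKM at PN21 and 26.4, 21.0, 36.0 and 22.0 FPKM at PN98 (log2 fold change 1.18, SE 0.22, limma adjusted p = 0.0258). *Pmepa1*, a TGF-beta-induced inhibitor of Smad2 and Smad3 phosphorylation, was at 17.1, 8.74, 21.0 and 22.3 FPKM at PN21 and 125.3, 127.8, 47.6 and 150.4 FPKM at PN98 (log2 fold change 2.59, SE 0.42, limma adjusted p = 0.0164). In both genes every PN98 mouse lay above every PN21 mouse, and *Pcsk6* lost its call in 5 of the 8 analyses that left out 1 mouse (m1, m49, m138, m106 or m114, adjusted p 0.0607 to 0.0738) and *Pmepa1* in 1 (m106, adjusted p = 0.0591).

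Of 13 TGF-beta responsive genes 38.5% were called. *Pmepa1*, which is in both lists, rose and 4 matrix genes fell, so the list did not move one way. *Postn*, which encodes periostin, was at 625, 437, 413 and 651 FPKM in m1, m49, m138 and m145 and at 79.4, 69.2, 52.6 and 38.8 FPKM in m35, m106, m114 and m125 (log2 fold change -3.15, SE 0.27, limma adjusted p = 0.00155). It was called in all 16 alternatives. The fibrillar collagen genes *Col1a1*, *Col1a2* and *Col3a1* had log2 fold changes of -3.03, -2.61 and -2.70 (limma adjusted p = 0.0185, 0.0183 and 0.0266) and did not overlap between ages. *Col1a1* and *Col1a2* lost their calls without m1, m138, m145 or m106 and *Col3a1* without any PN21 mouse or m106, with adjusted p-values of 0.0505 to 0.0865. Without the filter on low values *Col3a1* also lost its call (adjusted p = 0.0507).

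None of 5 tested BMP responsive genes passed, the nearest being *Hey1* with -0.82 (SE 0.23, limma adjusted p = 0.0768).

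**Figure D5:**
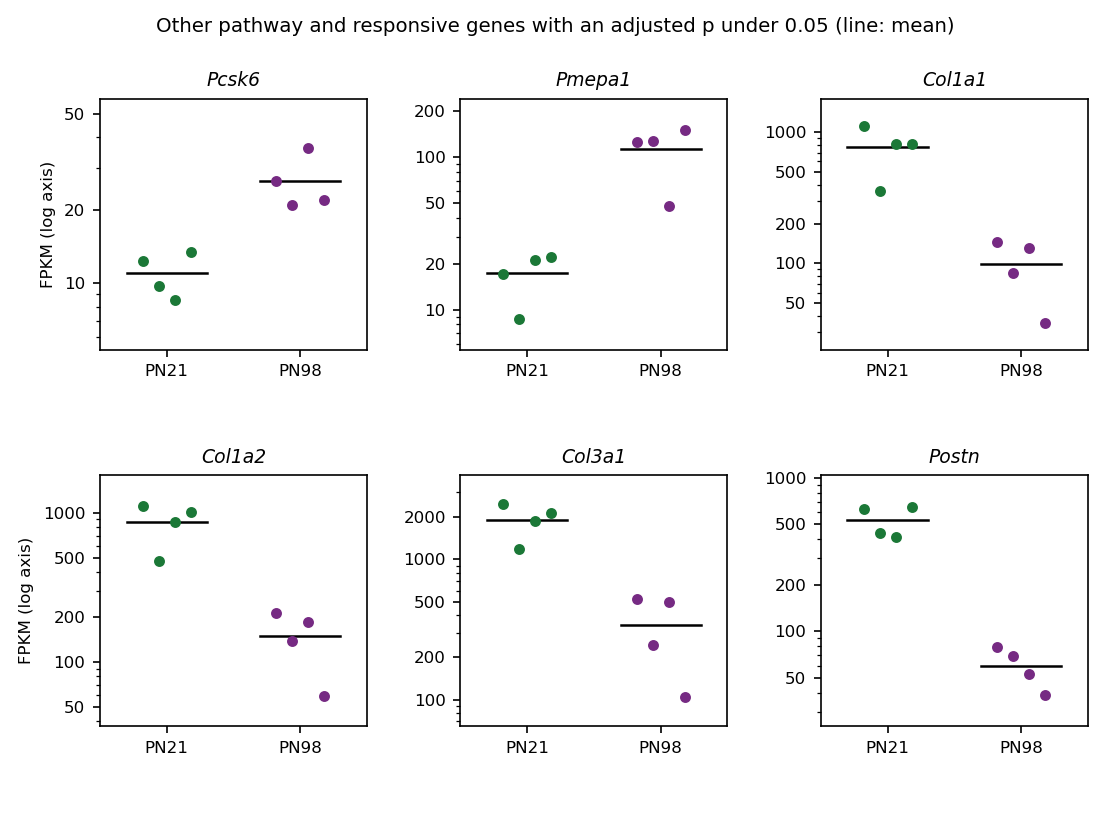
FPKM (log axis) of the 6 other pathway and responsive genes with an adjusted p under 0.05, with 1 point per mouse (4 per age) and the mean as a line. *Pcsk6* and *Pmepa1* were higher in every PN98 mouse, and *Postn* ran from 413 to 651 FPKM at PN21 and from 38.8 to 79.4 FPKM at PN98.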

How the data were processed

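Poly(A)+ RNA of the inguinal depot was sequenced in 8 mice, 4 per age. According to the submitters' processing notes, the authors used CASAVA 1.8.2, FastQC, STAR 2.3.0 on mm10 (GRCm38) and Cufflinks 2.1.1, and they deposited 1 FPKM value per transcript and mouse. The members and lists were chosen with earlier results of these data known.

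Of 91969 deposited transcripts, 40506 had values without their decimal mark. It was restored from the deposited SD, average and score, with a single reading for 40454. In 5023 of 5023 restored transcripts also listed with intact decimals the values were equal in all mice (relative tolerance 1e-05, wider for values near 0). From that second table, whose columns of the authors' comparison were not used, 17 transcripts without a single reading were taken, and 35 were left out.

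FPKM was summed per gene over its own transcripts by GENCODE vM21 (88737 transcripts, and 1928 by their single symbol). The ages were compared with limma 3.58.1 (R 4.3.3) on log2(FPKM + 1) for genes with a mean of at least 1 FPKM, and transcripts on log2(FPKM). Calls had an adjusted p under 0.05. The gene-level fit was tested on simulated data. Depth is unknown, so no counting error is given. The PN21 libraries summed to 1878926 to 3009301 FPKM and the PN98 libraries to 1567668 to 1747088 FPKM, without overlap. The scale of the deposited values thus differed with age. The mitochondrial genome made up 50.3% to 59.4% of the sums at PN21 and 41.8% to 51.3% at PN98. p-values measure the spread between mice. Values in every mouse are given for members called or not overlapping, for the highest member of each role and for some others chosen after their values were seen. Other pathway genes are named where called, and *Hey1* was chosen after its values were seen.

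Alternatives were a pseudocount of 0.1, no filter, a mean of at least 2 FPKM, median of ratios scaling, scaling to nuclear genes, limma trend, arrayWeights, every transcript listing the symbol, leaving out each mouse and, for transcripts, a pseudocount of 1 with and without the condition on zeros.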

Additional observations from a re-analysis of the deposited data

Results flagged for a closer look

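In 8 of 80 groups of 4 mice (40 members at 2 ages) 1 mouse lay far from the other 3 by Dixon's test on log2(FPKM + 1). Chance gives about 1 in 20 for independent groups, but the 80 groups come from the same 8 libraries. The share over all genes is not given, so the count says nothing particular about these members. At PN21, *Bmp6* was lowest in m49 at 2.11 FPKM, beside 3.91 to 4.35 FPKM. *Bmpr2* was highest in m138 at 1.57 FPKM, beside 0.894 to 0.924 FPKM, and *Smad7* in the same mouse at 8.97 FPKM, beside 5.18 to 5.71 FPKM. At PN98, *Id2* and *Chrdl1* were highest in m35, at 30.2 FPKM beside 7.25 to 9.31 FPKM and at 18.5 FPKM beside 12.8 to 13.4 FPKM. In m125, *Ltbp2* was highest at 21.6 FPKM, beside 15.1 to 16.0 FPKM, and *Id4* lowest at 0.569 FPKM, beside 1.58 to 1.82 FPKM. *Tgfbr1* was lowest in m114 at 4.14 FPKM, beside 5.13 to 5.26 FPKM.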

How the results depend on the processing

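*Inhbb* was called under all 16 alternatives, with log2 fold changes of 1.96 to 2.68, and *Fstl1* kept its direction in all 16, at -2.06 to -1.52. With median of ratios scaling 6 of 40 members were called (5 higher and 1 lower, beside 1 and 1 as deposited), beside 7.61% of all genes, 10 did not overlap, beside 16.7%, and 4 of 55 member transcripts were called, beside 2.12% of all. This scaling moved the median of all genes from -0.21 to -0.02 and scaling to nuclear genes moved it to 0.01, and the members' median from -0.05 to 0.14 and 0.17. With arrayWeights 10 of 40 members (25%) and 17 of 49 other pathway genes were called, beside 28.9% of all genes, 6 of 55 member transcripts were called, beside 6.78% of all, and 18 had an unadjusted p under 0.05, beside 31.1%. Leaving out 1 mouse gave 1 to 7 members called, 6 to 13 not overlapping, 1 to 16 other pathway genes, 0 to 6 member transcripts called, 9 to 17 with an unadjusted p under 0.05 and 7 to 15 shares not overlapping, the highest each time without m35, and the cause was not tested. *Acvrl1* turned higher at 0.19 with median of ratios scaling, 0.22 with scaling to nuclear genes and 0.0066 with arrayWeights, and ran from -0.28 to 0.41 with 1 mouse left out. *Tgfbr3* turned lower at -0.10 with arrayWeights and ran from -0.087 to 0.16 with 1 mouse left out. Transcripts with intact decimals alone left 0 transcripts to test. No paired analysis was possible because the mice carry numbers of their own and none is shared between the ages. With an unknown depth, values near 0 cannot be told from failed estimates.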

Other observations

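Of 34 tested pathway genes outside the 48, 6 (17.6%) did not overlap between the ages, 5 higher and 1 lower at PN98. This share was near the 16% of all genes. *Pcsk6* and *Pmepa1* among them passed the test, and those that did not are named here after their values were seen. *Bmp3*, an atypical BMP ligand, was at 4.04, 2.20, 2.49 and 5.27 FPKM in m1, m49, m138 and m145 and at 27.98, 11.8, 18.7 and 6.12 FPKM in m35, m106, m114 and m125 (log2 fold change 1.803, SE 0.44, limma adjusted p = 0.0537). The gap between m145 and m125 was narrow. *Ppm1a*, a phosphatase known to act on Smads, was at 32.1 to 44.6 FPKM at PN21 and 47.6 to 63.1 FPKM at PN98 (log2 fold change 0.50, SE 0.16, limma adjusted p = 0.108). *Tab1*, a partner of the kinase TAK1, was at 6.10 to 7.21 FPKM at PN21 and 3.22 to 5.38 FPKM at PN98 (log2 fold change -0.65, SE 0.17, limma adjusted p = 0.0617). *Hjv*, a BMP co-receptor of skeletal muscle and liver, had its highest value in m106 at 7.14 FPKM, where the muscle marker sum was also highest (log2 fold change 1.42, SE 0.42, limma adjusted p = 0.0907).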
